A study of Mus musculus with 10 samples.

Results

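Promoter methylation of mature mouse eggs was compared between older and younger wild-type (WT) females, over 45241 promoter windows that were listed for both WT pools. These windows were all those found in both deposited WT tables under the same chromosome, start, end and transcript, leaving out the mitochondrial genome and the Y chromosome. They made up 45241 of the 49665 nuclear windows without the Y chromosome that were listed for any pool of the study. Each window is 2000 bp long and is centred on an annotated transcript start.

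Every sample consisted of MII oocytes, eggs arrested in the second meiotic metaphase and ready for fertilisation, from mice of mixed C57BL6/129 strain. The 11-month group held 3 WT libraries and the 2-month group 4 WT libraries. A 2-month Tet2 knockout (Tet2KO) group of 3 libraries is given below only as a set of levels beside the others. Libraries were made with a low-input bisulfite method, and their values were deposited as a single pooled value per window and group. The spread between eggs, females and libraries was therefore not measured here, no test was made, and every interval below covers counting error only. The labels conflict on the input, since the series design gives 10 oocytes per sample and the extraction protocol a single oocyte. No treatment is named for any group, and both WT groups carry no engineered allele per the labels.

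In mammals, oocyte DNA methylation is laid down while the oocyte grows, by the methyltransferase DNMT3A with its partner DNMT3L, mainly over transcribed gene bodies. Promoters rich in CpG sites stay mostly unmethylated, and maternally imprinted promoters are methylated and pass this mark to the embryo. Bisulfite converts unmethylated cytosine and leaves methylcytosine and hydroxymethylcytosine, so the levels here cover both forms.

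The following promoter sequences are shown because the results turn on their windows, and they span the range of CpG content met below. Each runs 5′ to 3′ on the gene's strand, from 250 bases before to 50 after the start, and so covers 300 of the window's 2000 bases. They are RefSeq sequences of build GRCm38.p6. Capitals mark the CpG sites, the positions whose cytosine is read out as methylated or not. The first 3 lie in windows higher at 11 months. Chad (chr11:94564797-94565096, plus strand) has 13 CpG sites here, Shisa7 (chr7:4844647-4844946, minus strand) has 23 and Sorl1 (chr9:42124248-42124547, minus strand) has 37.
Chad: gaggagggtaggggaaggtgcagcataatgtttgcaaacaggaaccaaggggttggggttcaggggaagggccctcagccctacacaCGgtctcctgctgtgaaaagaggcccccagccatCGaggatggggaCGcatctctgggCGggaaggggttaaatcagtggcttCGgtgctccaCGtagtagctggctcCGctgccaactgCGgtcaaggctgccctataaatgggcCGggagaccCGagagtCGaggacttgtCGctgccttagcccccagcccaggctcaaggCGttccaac
Shisa7: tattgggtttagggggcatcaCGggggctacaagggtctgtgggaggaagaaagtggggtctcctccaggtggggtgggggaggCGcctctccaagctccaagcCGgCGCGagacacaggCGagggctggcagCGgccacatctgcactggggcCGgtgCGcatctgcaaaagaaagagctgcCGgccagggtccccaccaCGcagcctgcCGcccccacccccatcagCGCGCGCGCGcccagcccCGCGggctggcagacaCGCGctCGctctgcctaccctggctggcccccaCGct
Sorl1: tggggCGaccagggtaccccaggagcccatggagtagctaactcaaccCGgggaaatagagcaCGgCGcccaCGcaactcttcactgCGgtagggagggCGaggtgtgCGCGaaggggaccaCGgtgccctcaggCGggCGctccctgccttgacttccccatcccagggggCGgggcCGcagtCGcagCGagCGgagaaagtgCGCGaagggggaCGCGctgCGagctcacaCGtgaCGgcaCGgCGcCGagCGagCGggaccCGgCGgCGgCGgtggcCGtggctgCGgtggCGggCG

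The next 3 lie in windows lower at 11 months. Hspa1b (chr17:34959189-34959488, minus strand) has 16 CpG sites in this stretch, Tnp2 (chr16:10788606-10788905, minus strand) has 4 and an internal start of Dmd (chrX:85048045-85048344, plus strand) has 14.
Hspa1b: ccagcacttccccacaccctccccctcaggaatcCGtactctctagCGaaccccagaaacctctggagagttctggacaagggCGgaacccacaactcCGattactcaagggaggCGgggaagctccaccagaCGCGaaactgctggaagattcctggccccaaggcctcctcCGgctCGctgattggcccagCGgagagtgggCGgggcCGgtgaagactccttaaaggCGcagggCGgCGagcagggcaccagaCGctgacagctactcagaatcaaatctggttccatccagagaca
Tnp2: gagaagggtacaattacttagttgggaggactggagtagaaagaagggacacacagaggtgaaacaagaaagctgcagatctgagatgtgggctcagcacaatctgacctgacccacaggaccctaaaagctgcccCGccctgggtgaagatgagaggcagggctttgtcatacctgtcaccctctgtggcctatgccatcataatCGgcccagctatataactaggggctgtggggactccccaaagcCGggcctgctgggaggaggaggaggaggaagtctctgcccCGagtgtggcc
Dmd: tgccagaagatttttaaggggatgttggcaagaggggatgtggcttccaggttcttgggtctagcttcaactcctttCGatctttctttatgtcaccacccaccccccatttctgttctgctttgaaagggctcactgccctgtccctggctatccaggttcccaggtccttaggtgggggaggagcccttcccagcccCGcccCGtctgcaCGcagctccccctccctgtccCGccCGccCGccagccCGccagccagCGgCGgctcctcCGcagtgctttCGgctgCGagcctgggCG

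The methylation level of a window is the percentage of its CpG calls that were methylated, and a difference is the 11-month level minus the 2-month level in percentage points, called points. The shared and unshared nuclear windows held 9392359 calls for the 2-month pool and 16993810 for the 11-month pool, with medians of 100 and 159 calls per window. Overlapping windows share calls, so these sums count some calls more than once. At these medians a level of 0 allows a true level of up to 3.0% in the 2-month pool and 1.89% in the 11-month pool. Calls from neighbouring CpG sites of a read, or from PCR copies, are not independent. The oocyte label was set against imprinted promoters, of which only some lie at the germline-methylated region itself. Of 21 maternally imprinted genes 11, in 9 windows, stood between 92.9% and 100% at 2 months and between 87.2% and 97.9% at 11 months, while 8, such as Igf2r, Grb10 and H13, were under 10% in both pools. Dlk1 and Meg3, whose imprint comes from the father, were at 0% and 1.09% at 2 months and at 1.61% and 1.93% at 11 months. Of the 6 paternally imprinted genes 4 were under 10% in both pools and 2 over 80%, Mirg at 95% and 97.4% and Rian at 100% in each.

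Most promoters had nearly the same level at both ages. The mean level was 19.2% at 2 months and differed by -0.0778 points at 11 months, and the median levels were 3.57% and 3.02%. The sign of this mean depended on the measure, at 0.114 points by the deposited mean over positions and 0.180 points with 1 window per group of overlapping windows. In all, 1573 windows (3.48%) were higher at 11 months by 20 points or more and 1414 (3.13%) were lower by as much. With at least 50 calls in both pools the order turned, with 453 higher (1.53%) and 626 lower (2.11%) of 29644 windows. Of the 35036 windows under 20% at 2 months, 96.1% were under 20% at 11 months too. Of the 5655 windows over 80%, 91.0% stayed over 80%. Windows between these bounds at 2 months moved more often: of 4550, 33.7% were under 20% at 11 months and 14.5% were over 80%. Passages from end to end of the scale were few, with 37 windows from under 20% to over 80% and 44 the other way.

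**Figure D1:**
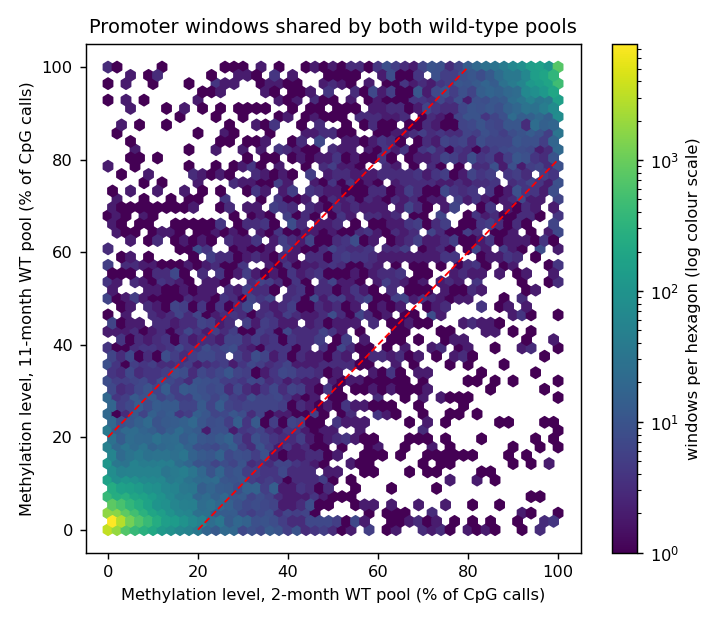
Methylation level of each shared window in the 2-month WT pool (x axis, % of CpG calls) and in the 11-month WT pool (y axis, % of CpG calls); colour gives windows per hexagon on a log scale and the dashed lines mark 20 points. Windows gather at both ends of the diagonal, with 1573 on or above the upper line and 1414 on or below the lower line.

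The windows called higher went from a median of 22.2% to 62.5%, and those called lower from 46.3% to 9.46%. Differences of 40 points or more were seen in 435 higher and 312 lower windows, and of 60 points or more in 116 and 95. Just outside the 20-point threshold, 258 windows were higher and 273 lower by 18 to 20 points. Just inside it, 202 were higher and 192 lower by 20 to 22 points. The Newcombe 95% interval of the difference excluded 0 in 1364 higher windows and 1267 lower windows. It also did so in 8681 of the 42254 windows called in neither direction. The called windows were picked by the size of the difference, so these counts are no test of it. In the Tet2KO pool, whose levels are set beside the others without a test, the median level was 50.2% over the 1126 higher windows listed for it and 11.9% over the 1120 lower ones.

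The balance of higher and lower windows differed with CpG coverage. Windows were grouped by the number of CpG positions covered in the pool with fewer, a number that reflects both CpG content and depth. With 5 to 9 covered positions, 10.3% of 4717 windows were higher and 6.78% lower, and the mean difference was 2.00 points. With 10 to 19 positions the shares were 5.79% and 4.38%, and with 20 to 39 they were 4.21% and 3.34%. The order turned above that: with 40 to 79 positions 1.28% were higher and 2.23% lower. Among the 11347 CpG-dense windows, meaning those with 80 or more covered positions in both pools, 44 were higher (0.388%) and 149 lower (1.31%). Their mean level was 4.50% at 2 months and 3.15% at 11 months.

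Depth moved with this pattern, and its part in it was not tested. Windows with 10 to 19 calls in the shallower pool were higher in 9.54% and lower in 6.41% of cases, against 0.365% and 1.38% of windows with 200 or more calls. The 149 CpG-dense windows that were lower had a median of 34.6% at 2 months and 1.75% at 11 months, with 439 and 714 calls. Those windows stood at a median of 1.79% in the Tet2KO pool. The 44 CpG-dense windows that were higher went from a median of 16.0% to 45.9%, and stood at 24.6% in the Tet2KO pool.

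Place in the genome mattered as well. Windows whose centre lies within 200 bp of a RefSeq gene start numbered 24675, with mean levels of 12.9% and 12.53%, and 2.35% of them were higher and 2.55% lower. Windows centred inside a protein-coding gene, away from its start and end, numbered 6594 and had far higher mean levels, 47.0% at 2 months and 47.9% at 11 months. Of these, 403 were higher (6.11%) and 268 lower (4.06%). Windows outside genes numbered 4525, at mean levels of 20.9% and 21.3%, and 6.28% were higher and 5.30% lower. Among windows with 5 to 19 covered positions, the higher and lower shares were 6.26% and 4.99% at gene starts, 7.73% and 4.97% inside genes, and 8.52% and 6.11% outside genes. Among CpG-dense windows they were 0.260% and 1.38% at gene starts, 1.48% and 1.06% inside genes, and 0.920% and 2.76% outside genes. The part of CpG coverage in the differences by place was not tested.

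**Figure D2:**
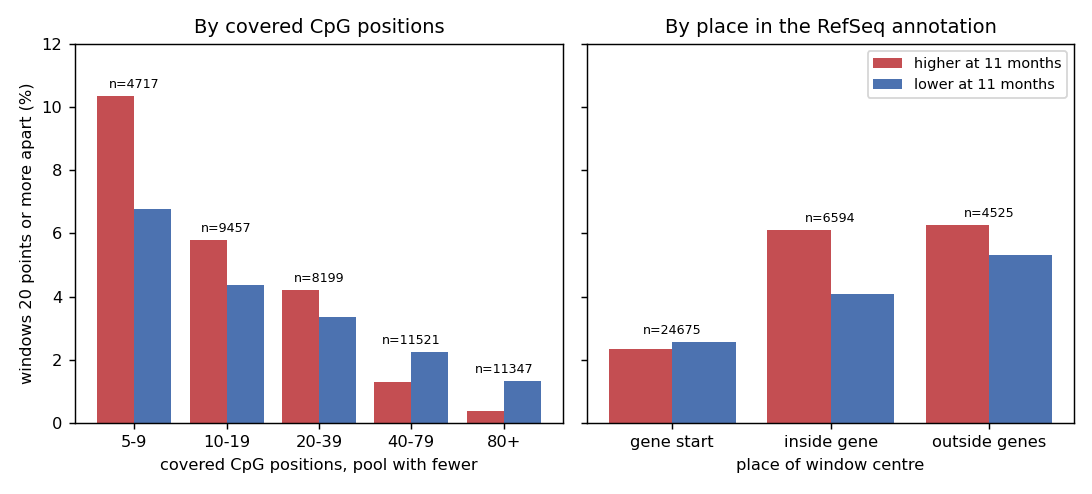
Percentage of windows 20 points or more higher (red) or lower (blue) at 11 months, by covered CpG positions in the pool with fewer (left) and by place of the window centre (right), with the number of windows above each pair. Higher windows outnumber lower ones up to 39 positions, and lower ones outnumber higher ones from 40 positions on.

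The sequence of the start region followed the same division. A RefSeq promoter of 300 bases was matched to each of 16306 gene symbols, with 1 window per gene. By that window 413 genes were higher (2.53%) and 416 lower (2.55%). The median promoter held 5 CpG sites in the higher genes, 8 in the lower genes and 17 in the others. The 71 lower genes with a CpG-dense window and at least 100 calls had a median of 24. The letters GGGCGG, the core of a GC box, were found on either strand in 25.7% of higher, 36.8% of lower and 54.8% of the other promoters, and in 35.7% of all 32851 promoters of the table. TATAAA, the core of a TATA box, was found on either strand in 15.7%, 17.1% and 9.39%, and in 13.6% of all. CCAAT was found on either strand in 34.1%, 43.0% and 37.8%, and in 37.4% of all. CACGTG, its own reverse complement and the core of an E box, was in 5.81%, 7.21% and 9.23%, and in 7.15% of all. None of these letter strings holds another of them. CpG content differs between these sets, and GGGCGG and CACGTG contain CG themselves, so the shares are a description of the letters only.

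Chromosomes differed modestly. Chromosome 19 had the lowest mean difference, -1.87 points over 1176 windows, and had 2.38% of windows higher and 5.02% lower. The X chromosome leaned the other way, with a mean of 0.962 points over 1467 windows, 5.11% higher and 2.59% lower. Chromosome 13 had a mean of 0.863 points over 1454 windows, with 4.61% higher and 2.54% lower.

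Among genes with at least 50 calls in both pools and a difference of 20 points by the deposited mean over positions too, the 10 highest went from low to high methylation. Chad, which encodes the cartilage matrix protein chondroadherin, went from 2.68% of 112 calls to 100% of 96 calls, and stood at 96.6% in the Tet2KO pool. Acsf2, an acyl-CoA synthetase family gene on the same chromosome, went from 17.7% of 113 calls to 95.6% of 181 calls, with an interval of the difference from 68.9 to 84.2 points. Shisa7, a gene for an auxiliary subunit of neurotransmitter receptors, went from 6.19% of 307 calls to 86.9% of 213 calls, and its interval ran from 74.5 to 85.1 points. For these 3 windows the Tet2KO level, 96.6%, 100% and 94.0%, was near the 11-month level, and the 2-month WT pool was the low one.

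The same order held in the other 7. Eps8l1, a relative of the actin regulator EPS8, went from 23.1% to 98.1%, and Rhog, a small GTPase, from 29.8% to 97.6%. Cntn1, the neural adhesion protein contactin 1, went from 24.7% to 97.1%, and Zfp113, a zinc finger gene, from 25% to 96.5%. Aspg, an asparaginase gene, went from 19.3% to 93.4%. Emb, which encodes the membrane glycoprotein embigin, went from 8.18% of 220 calls to 76.2% of 189 calls. Ccdc73 went from 3.66% to 87.3%. Their Tet2KO levels lay between 76.9% for Rhog and 98.1% for Cntn1, so that each was nearer to the 11-month than to the 2-month WT level.

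CpG-dense promoters gave fewer and smaller increases of level. Of the 44 higher CpG-dense windows 3 were 40 points or more apart, against 435 of all 1573 higher windows. The cut of 80 covered positions in both pools left out Shisa7, which had 80 at 2 months and 79 at 11 months. Sorl1, a sorting receptor gene with 37 CpG sites in the stretch printed above, stood at 3.06% of 457 calls at 2 months and at 69.7% of 238 calls at 11 months. Its difference was 66.7 points (interval 60.3 to 72.3), and its Tet2KO level of 15.2% was nearer to the 2-month level. Smarcc2, a subunit gene of the BAF chromatin remodelling complex, went from 5.66% of 601 calls to 43.3% of 215 calls and stood at 60% of 25 calls in the Tet2KO pool. Kctd21 and Usp35 share most of a window pair on chromosome 7 and therefore most of their calls, and they went from 21.0% to 54.2% and from 22.6% to 53.5%, with 31.0% for both in the Tet2KO pool. Gpr135, an orphan receptor gene, went from 19.3% of 626 calls to 46.3% of 633 calls, and its Tet2KO level was 9.03%. Kazn, the gene of the cell junction protein kazrin, went from 13.4% to 37.0%, with 30.7% in the Tet2KO pool. By calls, Sorl1, Gpr135, Kctd21 and Usp35 thus had an 11-month level above both 2-month pools by more than 20 points, while Smarcc2 and Kazn did not. By the deposited mean Kctd21 and Usp35 were nearer to the Tet2KO pool, at 53.3% and 53.2% at 11 months against 39.7% for both.

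**Figure D3:**
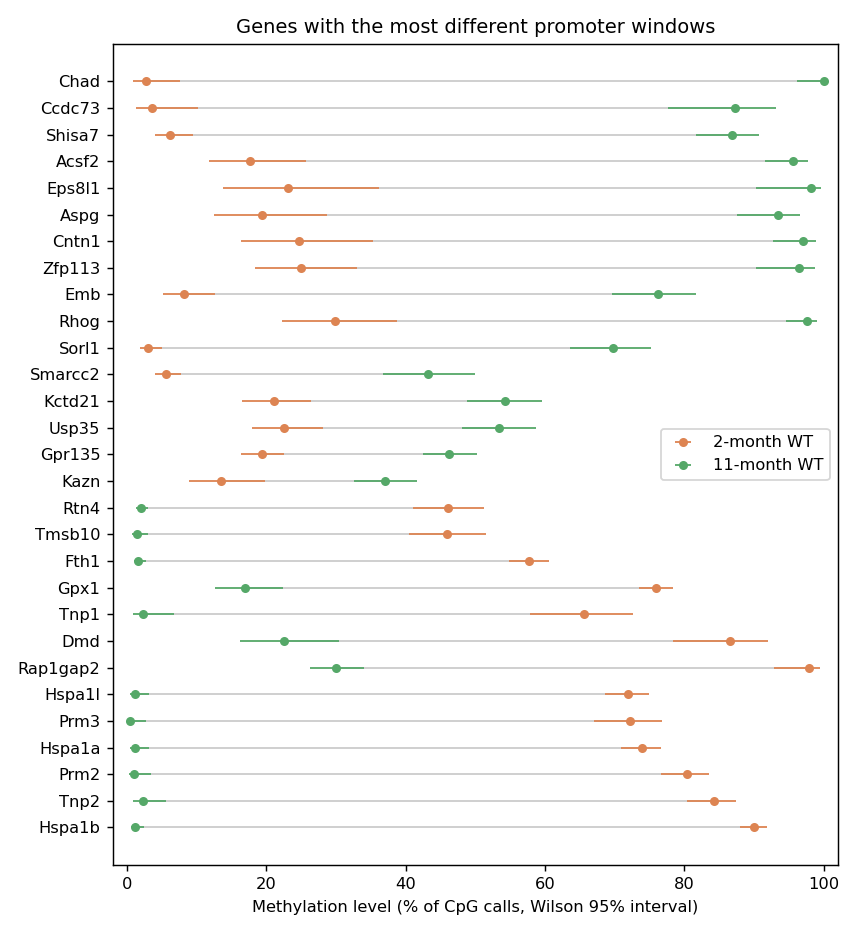
Methylation level (x axis, % of CpG calls, bars give Wilson 95% intervals) in the 2-month WT pool (orange) and the 11-month WT pool (green) for the genes with the highest and lowest differences, overall and among CpG-dense windows. The intervals of both pools do not overlap for any gene drawn, which follows from picking the genes by the size of the difference. Genes run from Hspa1b at 90.1% and 1.19% to Chad at 2.68% and 100%.

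Genes of sperm chromatin and heat shock genes were among the 10 lowest differences of genes named from the RefSeq promoters. These names leave out Jund and the RNA genes and pseudogenes described further on. Hspa1b, an inducible HSP70 chaperone gene, went from 90.1% of 916 calls to 1.19% of 586 calls. Its neighbour Hspa1a, a near-identical copy whose reads cannot be fully told apart from it, went from 73.9% of 907 calls to 1.08% of 278 calls. Hspa1l, a testis-expressed relative, lies head to head with Hspa1a and shares most of its window, and went from 71.9% to 1.11%. In the Tet2KO pool these windows stood at 0%, 5.26% and 3.85%, near the 11-month levels.

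Protamines and transition proteins replace histones when sperm chromatin is packed. Tnp2, a transition protein gene, went from 84.2% of 411 calls to 2.23% of 179 calls, and its neighbours Prm2 and Prm3 went from 80.3% to 0.971% and from 72.2% to 0.493%. Tnp1, on another chromosome, went from 65.6% of 154 calls to 2.36% of 127 calls. Prm1, next to Prm2, went from 70.2% of 336 calls to 16.2% of 99 calls. These genes again were low in the Tet2KO pool, between 0% for Tnp1 and 10.7% for Prm1.

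A further group of lower genes codes for abundant proteins of many cell types. Gpx1, glutathione peroxidase 1, went from 76.0% of 1149 calls to 17.0% of 224 calls. Fth1, the ferritin heavy chain, went from 57.7% of 1157 calls to 1.62% of 801 calls. Tmsb10, which binds actin monomers, went from 45.9% to 1.49%, and Rtn4, a reticulon of the endoplasmic reticulum, from 46.1% to 1.98%. All 4 have CpG-dense windows, and their Tet2KO levels lay between 0% and 7.31%.

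Rap1gap2 and Dmd were also among these 10 named genes. Rap1gap2, a GTPase activator gene, went from 98.0% of 98 calls to 29.98% of 537 calls, with a Tet2KO level of 33.6%. An internal start of Dmd, the dystrophin gene, went from 86.6% of 97 calls to 22.6% of 133 calls, with an interval from -72.3 to -52.7 points. Its Tet2KO level was 82.4%, so here the 11-month pool stood apart from both 2-month pools. By the deposited mean over positions this Dmd window was at 91.6% and 23.2%.

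The 2 measures of level differed in many of the lower windows. The deposited fraction weights every covered CpG position equally, whereas the share of calls weights a position by its depth. Hspa1b was at 73.5% at 2 months by the deposited mean, Tnp2 at 55.3%, Prm2 at 49.6%, Tnp1 at 40.6% and Fth1 at 30.6%, all below their share of calls. In the 2-month pool the deposited mean was below the share of calls in 869 of the 1414 lower windows and above it in 449, as at Dmd and Rpl41, and the medians were 44.7% and 46.3%. At 11 months the 5 windows named first were between 0.637% and 4.30% by the deposited mean. Of all windows called by calls, 1163 of the higher (73.9%) and 991 of the lower (70.1%) were also 20 points or more apart in the same direction by the deposited mean.

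**Figure D4:**
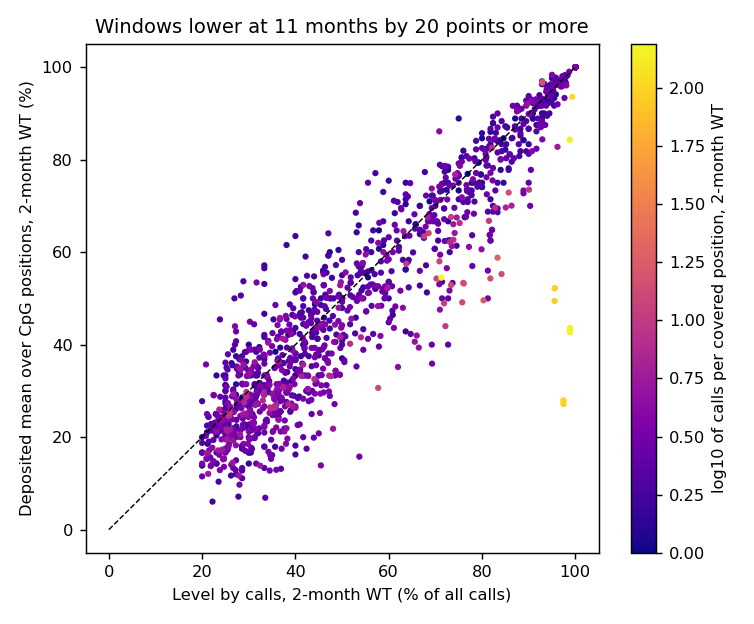
Windows lower at 11 months by 20 points or more, with the 2-month level by share of calls (x axis, %) and the deposited 2-month mean over positions (y axis, %), coloured by log10 of calls per covered position, the dashed line marking equality. Many windows with the most calls per position lie below the line, as at Rn7sk, with 97.5% by calls and 27.9% by positions.

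A small set of lower windows was read very deeply in the 2-month pool. The cut of 10 or more calls per covered position, used to describe them, was chosen after the values were seen. In the 2-month pool 35 of the 1414 lower windows (2.48%) passed it, none of the 1573 higher windows did, and 61 of the 42254 others (0.144%) did. In the 11-month pool the same cut was passed by 7 lower, 3 higher and 635 other windows. The 35 lower windows lie at 20 separate places. They include Tnp2, Prm1, Prm2, Prm3, Hspa1l, Fth1, Gpx1, Svs5 and Jund, so that several of the genes named above belong to this set.

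By calls per position the deepest of these windows holds no annotated gene (chr13:85126515-85128514), with 71.3% of 3241 calls at 2 months and 49.7% of 451 calls at 11 months, and 93.3% of 13218 calls in the Tet2KO pool. The windows with the most calls hold RNA genes. A window over Rn7s1 and the ribosomal protein gene Rps29 (chr12:69158187-69160186) held 12819 calls at 98.9% at 2 months and 453 calls at 1.32% at 11 months, or 141 and 4.87 calls per position. Its deposited means were 42.6% and 0.751%. Rn7s1 and Rn7s2 encode the 7SL RNA of the signal recognition particle. A window over Rn7s2 (chr12:69360259-69362258) went from 95.5% of 3480 calls to 0.873% of 229 calls. One over Rn7sk, the gene of the transcription regulator 7SK RNA, went from 97.5% of 7089 calls to 1.36% of 294 calls (chr9:78174633-78176632). All 3 RNA genes have near-identical copies elsewhere, so where their reads belong is uncertain. Processed pseudogenes were also present, with Ftl1-ps1 at 92.9% and 3.03% and Eef1a1-ps1 at 81.5% and 1.92%. Jund, a CpG-rich AP-1 factor gene, stood at 63.8% of 1656 calls and 1.65% of 1938 calls in 1 window. In another, overlapping window it was at 68.6% of 2048 calls and 1.26% of 1910 calls. The part of these deep windows in the differences was not tested. Without windows of 10 or more calls per position in either pool, 1570 windows were higher and 1376 lower, an alternative added after seeing the data.

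The share of called windows also varied with the ratio of depths. The 11-month pool had a median of 1.76 times the calls of the 2-month pool per window. In 111 windows it had under 0.3 times as many, and of these 30.6% were lower and 9.01% higher. In the 6091 windows with 0.3 to 1 times as many, 4.38% were lower and 6.81% higher. In the 57 windows with 10 times as many or more, 10.5% were lower and 1.75% higher.

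Gene lists were then read by 1 window per gene, against the shares of 2.53% higher and 2.55% lower over all genes and a median difference of 0. The lists were chosen with earlier results of these data known, so their shares are a description and no test. The sperm list had the largest share of lower genes. Of 40 genes of sperm function and packaging, 14 were lower and 2 higher, and the list median went from 23.3% to 3.37%, with a median difference of -5.31 points. The 14 lower genes lie at 13 separate places, and 11 of the 40 were lower by the deposited mean. Besides the genes above they were Cabs1, Catsper2, Dnah17, Dnajb3, Pgk2, Spaca1, Spata3 and Spesp1. Tnp2, Prm1, Prm2, Prm3 and Hspa1l are among the lower windows read very deeply in the 2-month pool. Spesp1, a sperm equatorial segment protein gene, went from 95.8% of 24 calls to 18.1% of 105 calls. Pgk2, the sperm form of a glycolytic enzyme, went from 68.2% of 22 calls to 5.56% of 18 calls. Gapdhs and Spata19 were the higher genes, at 25.8% and 47.2% and at 0% and 24.1%, and both had under 50 calls in the shallower pool and an interval that included 0.

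Chaperones gave 8 lower genes and 1 higher gene of 56. The lower genes lie at 7 separate places, and they were Hspa1a, Hspa1b, Hspa1l, Hspa5, Hspb1, Hspb9, Dnajb3 and Dnajb8, of which Hspa1l and Dnajb3 are also in the sperm list. Hspa5, the chaperone BiP of the endoplasmic reticulum, went from 33.3% of 799 calls to 2.45% of 774 calls. Hspb9, a testis chaperone, went from 70.0% to 21.3% and stood at 49.3% in the Tet2KO pool. Dnajb8 went from 42.0% to 0%, each of 143 calls. Hspb3 was the higher gene, at 12.99% and 46.3%. The median difference of the list was -0.163 points, with 25 genes above 0 and 30 below.

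Histone genes split. Of 56, 8 were lower and 2 higher, with a median difference of -1.11 points. H2al2a, a testis histone, went from 52.0% of 100 calls to 0% of 26 calls. H2ac19 went from 41.0% of 349 calls to 1.26% of 475 calls, and H3f3b, which encodes the replacement histone H3.3, from 37.8% of 465 calls to 2.42% of 908 calls. H2aj, H1f2, H2bu2, H2aw and H2ac6 were the other lower genes, at 23.8% to 34.8% at 2 months and 1.36% to 2.70% at 11 months. The higher genes, H2bc6 and H1f4, are neighbours on chromosome 13 with overlapping windows, at 43.9% and 87.8% and at 22.5% and 58.9%.

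**Figure D5:**
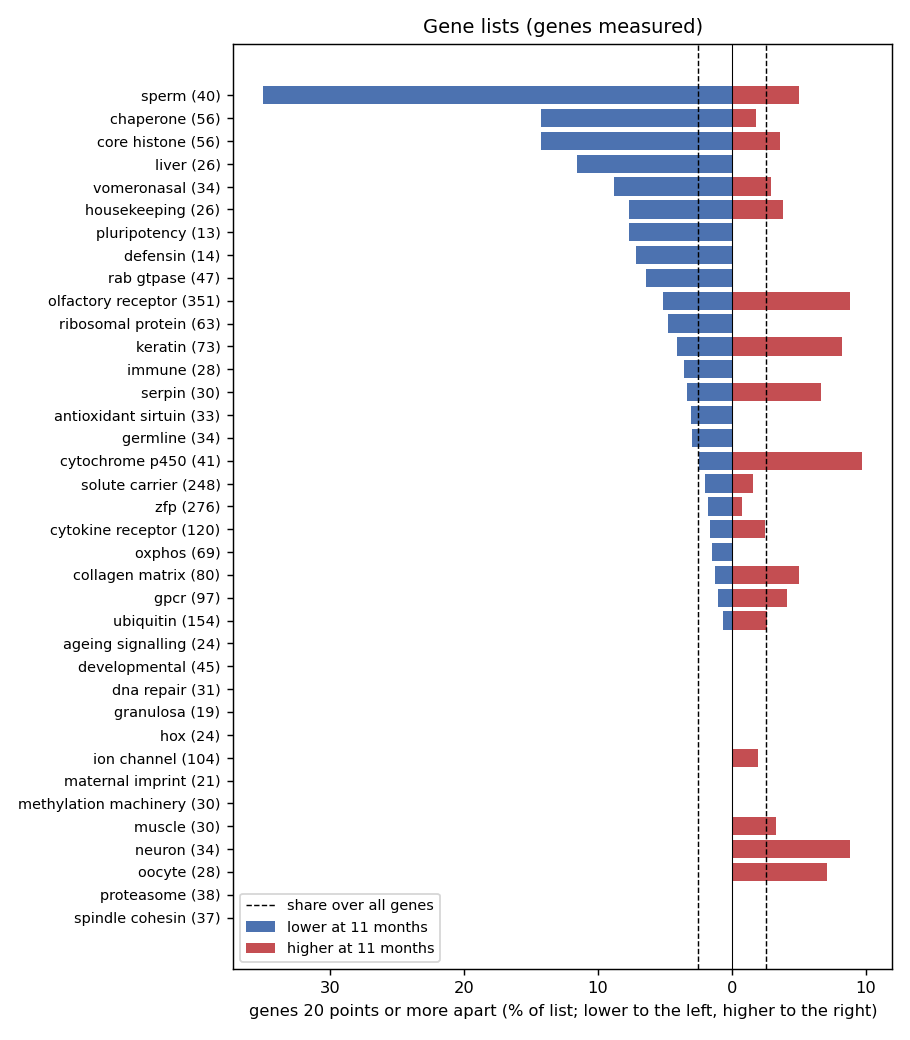
Percentage of each gene list (number of genes measured in brackets) that was 20 points or more lower (blue, to the left) or higher (red, to the right) at 11 months, for lists of 10 genes or more; dashed lines mark the shares over all genes, 2.55% and 2.53%. Sperm genes have the longest blue bar, 14 of 40, followed by chaperone and core histone genes with 8 of 56 each.

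Lists of core cell machinery had few called genes in number, and their medians were small and below 0 by the share of calls. The share of lower genes was 4.76% of ribosomal protein, 6.38% of Rab, 7.69% of housekeeping and 3.03% of antioxidant and sirtuin genes. Over all genes it was 2.55%, and it was 1.45% of oxidative phosphorylation and 0% of proteasome genes. Among 63 ribosomal protein genes 3 were lower and none higher, and the median difference was -0.828 points. Rpl41 was at 50.8% and 1.498%, Rpl27 at 34.1% and 6.25%, and Rps9 at 32.3% and 9.06%. By the deposited mean 4 ribosomal protein genes were lower and 1 higher. Oxidative phosphorylation genes had 1 lower gene of 69, Atp5d, an ATP synthase subunit, at 39.1% and 3.49%. Their median difference was -0.795 points by calls and 0.530 points by the deposited mean, so its sign rests on the measure. Rab GTPases had 3 lower genes of 47, Rab11b, Rab17 and Rab24. The difference at Rab24 was -23.6 points by calls and -12.7 by the deposited mean. Among 33 antioxidant and sirtuin genes Gpx1 was lower, and the median difference was -1.64 points. Housekeeping genes had 2 lower and 1 higher of 26, with a median difference of -2.21 points, or -0.622 by the deposited mean and -0.662 over all their windows. Tubb5, a tubulin, went from 22.4% to 0%, Chmp2a from 46.9% to 25.7% and Emc7 from 4.91% to 32.4%. Chmp2a was at 36.5% and 33.7% by the deposited mean, by which 0 housekeeping genes were lower and 1 higher. None of the 38 proteasome genes was called, and their median difference was -0.421 points by calls and 0.215 by the deposited mean.

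Oocyte and germline genes stayed low. Of 28 oocyte genes 26 were under 10% in both pools, and of 34 germline genes 29 were. Gpr3, a receptor that keeps oocytes in meiotic arrest, was higher, from 5.82% of 189 calls to 31.7% of 578 calls, with 14.4% in the Tet2KO pool. Oog1, an oocyte gene, went from 0% of 11 calls to 23.1% of 13 calls, too few calls for its interval to exclude 0. Mael, a piRNA pathway gene, was the lower germline gene, from 27.5% of 91 calls to 5.59% of 519 calls. The eggs' structural and signal genes stayed near 0, with Zp3 at 1.92% and 2.58%, Bmp15 at 0% and 2.50%, Ddx4 at 0% and 1.70% and Dazl at 1.76% and 2.80%. Spindle and cohesin genes, whose products segregate chromosomes, had no called gene of 37, a median difference of 0.885 points and 34 genes under 10% in both pools. By the deposited mean 1 of them, Cdc20, was lower, at 29.5% and 3.92%, against 18.7% and 3.47% by calls. DNA repair genes had none of 31 and a median difference of 0.699 points. Ageing-related signalling genes had none of 24, with a median difference of -0.123 points by calls and 0.523 by the deposited mean.

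Maternal imprints showed no call among 21 genes. Kcnq1ot1, the imprinted antisense RNA of the Kcnq1 domain, was at 99.4% and 97.8%, Mest at 96.1% and 94.9%, and the shared window of Peg3 and Usp29 at 96.2% and 95.5%. Snrpn and Snurf, which share a window too, were at 94.3% and 96.2%. The 11 highly methylated genes differed by -5.68 to 1.89 points, with a median of -0.656. Zim1 had the lowest difference of the list by calls, at 32.2% of 87 calls and 19.6% of 194 calls, and by the deposited mean it was at 17.8% in both pools. Igf2r moved the other way between the measures, at 8.62% and 2.28% by calls and at 21.1% and 4.24% by the deposited mean. None of the 6 paternally imprinted genes was called either, with a median difference of 1.23 points.

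The enzymes that write, copy and remove the mark showed no called promoter among 30 methylation machinery genes, with a median difference of 0.0943 points by calls and -0.153 by the deposited mean. Dnmt1, which copies the mark after replication, stood at 97.0% and 95.3% in its window with most calls, and Dnmt3b at 98.7% and 96.7%. Dnmt3a was at 1.33% and 1.26%, Dnmt3l at 0% and 3.23%, and Uhrf1, which guides DNMT1 to DNA, at 1.74% and 0.714%. Tet2 was at 14.0% of 214 calls and 7.12% of 969 calls, a difference of -6.90 points (interval -12.4 to -2.50). Tet3 was at 100% of 30 calls and 94.7% of 94 calls.

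Lists of genes typical of other tissues varied. Granulosa and cumulus genes, the cells around the egg, had no called gene of 19 and a median difference of 0, with 17 under 10% in both pools. Blood cell genes had 1 lower of 28, Klf1, an erythroid factor, at 37.5% and 11.5%. By the deposited mean Klf1 was at 36.0% and 26.5%, and the list then had 0 lower and 2 higher genes. Liver genes had 3 lower of 26 and none higher. They were Cyp2e1, at 38.1% of 21 calls and 0% of 28, G6pc, at 30.8% of 39 calls and 0% of 43, and Apoe, at 38.0% and 8.50%. Apoe was at 18.6% and 9.67% by the deposited mean. Neuronal genes leaned the other way, with 3 higher of 34 and none lower. Besides Shisa7 and Cntn1 these held Nlgn1, a synaptic adhesion gene, which went from 0% of 205 calls to 55.1% of 245 calls, with 16.1% in the Tet2KO pool. By the deposited mean 1 neuronal gene, Dlg2, was lower, at 27.5% and 2.65%. By calls Dlg2 was at 25% of 24 calls and 5.26% of 57 calls. Muscle genes had 1 higher of 30, the actin gene Acta1, at 10.3% and 45.3%, and a median difference of -2.08 points. Pluripotency genes had 1 lower of 13, Pou5f1, the gene of OCT4, from 30% of 130 calls to 1.47% of 204 calls, and a median difference of -1.90 points. Developmental regulators, targets of Polycomb, had none called of 45, and HOX genes none of 24.

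Several large gene families held higher genes too. Olfactory receptors, sensory genes in tandem clusters, had 31 higher (8.83%) and 18 lower (5.13%) of 351, at medians of 25 and 28 calls per window. Of these, 30 higher and all 18 lower genes had under 50 calls in the shallower pool. Keratins had 6 higher and 3 lower of 73, with a median difference of 1.35 points, and Krt78 was at 5.06% and 49.7%. Cytochrome P450 genes had 4 higher and 1 lower of 41, with Cyp2a22 at 38.1% of 21 calls and 100% of 20. Collagen and matrix genes had 4 higher and 1 lower of 80. Col6a4 was at 16.7% of 18 calls and 90.0% of 30, Lamb1, a laminin chain, at 4.97% of 181 calls and 39.2% of 400, and the integrin gene Itga5 at 67.5% of 114 calls and 23.1% of 242. G-protein-coupled receptors with Gpr or Taar-type names had 4 higher and 1 lower of 97, ubiquitin pathway genes 4 and 1 of 154, and cytokines with their receptors 3 and 2 of 120. The higher shares of the ubiquitin and cytokine lists, 2.60% and 2.50%, were near the 2.53% over all genes.

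The remaining families had shares near or under those of all genes or few members. Ion channels had 2 higher and none lower of 104, with Cacna1d, a calcium channel, at 9.59% of 469 calls and 29.8% of 731. Zinc finger genes had 2 higher and 5 lower of 276, and solute carriers 4 and 5 of 248. Slc3a2, which pairs with amino acid transporters, went from 49.5% of 196 calls to 1.28% of 467 calls. Serpins had 2 higher and 1 lower of 30, vomeronasal receptors 1 and 3 of 34, and defensins none and 1 of 14. The 9 protocadherins and 6 microRNA host genes had none called.

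Some neighbouring windows were called in the same direction. A neighbour here is the next shared window that does not overlap, at whatever distance. With 1 window per group of overlapping windows, 4.15% of 28744 were higher and 3.42% lower. Whether there were more runs than such shares give was not tested. Of 29058 windows that do not overlap, neighbours called in the same direction formed 146 runs of 2 windows, of which 94 were higher and 52 lower, 13 runs of 3, 5 runs of 4 and 1 run of 5. The run of 5 lies inside Snhg14 (chr7:59554933-59618690), the long host transcript of imprinted snoRNA clusters, and its windows were between 11.1% and 38.1% at 2 months and between 70.0% and 82.6% at 11 months. They had 10 to 34 calls each, and the snoRNA units are tandem copies, so the placing of their reads is uncertain.

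Runs of 4 higher windows lay inside Nckap5 (chr1:125920963-126493742) and Pde4d (chr13:109115641-109582404), so their windows lie far apart. Others lay across Trmt10c, Senp7 and Impg2, and over the testis serine protease cluster of Prss45 and Prss46. In Pde4d, a cyclic AMP phosphodiesterase gene, the first window went from 0.763% of 131 calls to 79.3% of 217 calls, with 50.4% in the Tet2KO pool. The last went from 0% of 36 calls to 50% of 34 calls. Windows at Prss45 and Prss46 went from 48.6% to 97.8% and from 51.2% to 100%. The run of 4 lower windows ended in Ido2 on chromosome 8, where a window went from 93.9% of 33 calls to 16.0% of 25 calls.

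Some genes held several called windows inside them, though overlapping windows share calls. All 4 internal windows of Mpv17l were higher, with medians of 14.5% and 47.3%, and 4 of 5 in Nfe2, an erythroid factor gene, with medians of 0% and 58.1%. In Spcs2, a signal peptidase subunit gene, 3 of 3 were higher, at 36.4% and 97.5%. All 5 internal windows of Lnx1, an E3 ligase gene, were lower, at 42.9% and 19.4%, as were the 3 of Nrip2 (92.6% and 46.8%) and all 3 of Prss23 (46.1% and 1.02%). Pde4d had windows of both kinds inside, 4 higher and 2 lower of 9. Gramd1c, a sterol transfer protein gene, was the only gene with separate start windows called in opposite directions at 20 or more calls. Its window at chr16:44026946-44028945 went from 0% of 46 calls to 21.5% of 93, and that at chr16:44015437-44017436 from 27.5% of 51 calls to 3.30% of 91.

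Windows not listed for the Tet2KO pool numbered 4704 and differed more often. Of these, 447 were higher (9.50%) and 294 lower (6.25%), their mean levels were 35.6% and 37.2%, and the mean difference was 1.56 points. Windows with 10 to 19 calls in the shallower WT pool had near shares, 9.54% and 6.41%, and the part of depth was not tested. In the 40537 windows listed for all pools the shares were 2.78% and 2.76%, and the mean difference was -0.267 points. Apod, a lipocalin gene, had the highest difference with at least 30 calls, from 6.45% of 31 calls to 81.4% of 43 (interval 54.9 to 85.0 points). Ovgp1, which encodes oviductin of the oviduct fluid, went from 23.8% of 42 calls to 97.4% of 39. Akap6 went from 36.7% to 97.2% and Nup160, a nuclear pore gene, from 40% to 93.9%. Lower genes of this set were Ppp1r11, at 45.9% of 37 calls and 4.82% of 83, Svs2, a seminal vesicle protein gene, at 48.5% and 9.38%, and H2-M3, a nonclassical MHC gene, at 66.7% and 32.0%. The 4 higher genes ended above 80%, and none of these lower genes began above it.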

How the data were processed

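DNA methylation was measured by low-input bisulfite sequencing in 10 libraries of mouse MII oocytes, of which the 7 WT libraries enter the comparison as 2 pools. The authors deposited, per window, whole-number counts of methylated CpG calls, the coverage as the number of all CpG calls, the number of covered positions and a fraction, the mean over covered positions of the methylated share. The submitters' processing notes name Trimmomatic, Bismark (version field 12.5) and the mm10 build but not what each did, and no further step is given in the sources used here. No listed window has fewer than 10 calls or 5 positions. The 2-month WT table breaks off within a line on the X chromosome, and 28 X windows of the 11-month table past that point were not analysed here.

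From these counts the level of each pool, the difference and, at a confidence level of 95%, Wilson and Newcombe intervals were computed with Python 3.11.15, pandas 2.3.3 and scipy 1.17.1, by functions checked on simulated data. With 1 pooled value per group, no replicate spread, p-value or left-out library could be had. Medians of 100 and 159 calls per window set the precision, and intervals cover counting error only.

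A window took the symbol of each RefSeq promoter (GRCm38.p6) whose start lies within 200 bp of its centre. This named 24675 windows (54.5%) for 16306 symbols. Windows on chromosome 18 were counted but not named here. Per gene, the window with most calls in the shallower pool was used.

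The members, the 40 gene lists and the rules were chosen with earlier results of these data known. Named genes, without predicted genes and receptors of smell, were the 10 highest and 10 lowest with at least 50 calls whose deposited mean differed alike by 20 points, the 6 and 6 among CpG-dense windows with at least 100 calls, the 4 and 4 with at least 30 calls among windows not listed for the Tet2KO pool, up to 4 per list with at least 20 calls, imprinted genes, methylation enzymes, genes called both ways and the longest runs. Receptor and other list members, internal windows, deep windows and members with fewer calls that fall outside this rule were chosen after their values were seen. Alternatives covered the deposited mean, 20 or 50 calls at least, the threshold, shared Tet2KO windows, unequal depth, overlapping windows and the X chromosome.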

Additional observations from a re-analysis of the deposited data

Results flagged for a closer look

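Mitochondrial windows lay outside the comparison, and they carried methylated calls in every pool. Over 37 windows, which overlap, the level was 34.3% of 13437259 calls in the 11-month WT pool. It was 27.4% of 5654504 calls in the 2-month WT pool and 24.8% of 3146406 calls in the Tet2KO pool.

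Y chromosome windows were listed for the 11-month WT pool alone, with 49 calls in 3 windows, although eggs come from females. This pool also held the most nuclear calls, 16993810 against 9392359 in the 2-month WT and 5464356 in the Tet2KO pool. The part of depth in this listing was not tested. At chrY:1285630-1287629 none of 11 calls was methylated. At chrY:16696034-16698033 the level was 3.70% of 27 calls, and at chrY:90784586-90786585 it was 90.9% of 11 calls.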

How the results depend on the processing

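Counts of windows 20 points apart kept within 1.5 times of 1573 higher and 1414 lower under the deposited mean (1511 and 1378), at least 20 calls (1052 and 1064), without the X chromosome (1498 and 1376), without windows of unequal depth (1448 and 1282), with 1 window per overlapping group (1193 and 983), with Tet2KO windows only (1126 and 1120) and with intervals that exclude 0 (1364 and 1267). With at least 50 calls they were 453 and 626, so lower windows then outnumbered higher ones. With a threshold of 40 points they were 435 and 312. These settings keep different numbers of windows, so the shares moved otherwise than the counts. At 20 points 3.48% of all 45241 windows were higher and 3.13% lower. The shares were 2.64% and 2.67% of 39778 with at least 20 calls, and 1.53% and 2.11% of 29644 with at least 50. With 1 window per overlapping group they were 4.15% and 3.42% of 28744. The mean difference of -0.0778 points changed sign to 0.114 by the deposited mean and to 0.180 with 1 window per overlapping group. It was -0.311 and -0.750 points with at least 20 and 50 calls, -0.267 in windows listed for the Tet2KO pool too, -0.0345 without windows of unequal depth and -0.00752 without windows of 10 or more calls per position, the last an alternative added after seeing the data. By the deposited mean 6 of 40 list medians changed sign, to 0.530 for oxidative phosphorylation, 0.215 for proteasome, 0.523 for ageing-related signalling, -0.153 for methylation machinery, 0.120 for developmental and 0.0957 for solute carrier genes. Over all windows of a list, ageing-related signalling changed sign to 0.667. Of 205 named genes, 50 left their counting interval by the deposited mean. Of the 94 that were 20 points or more apart, 0 changed sign, and of the 111 others 8 did. Genes picked for the highest and lowest differences, in all windows or CpG-dense ones, had to agree in sign by both measures. For those genes the outcome was fixed in advance. No paired analysis was possible because each group was deposited as a pooled value whose columns carry no replicate number, and leaving out a library was not run for the same reason. Depth limits windows with few covered positions most.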

Other observations

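Windows listed for a single WT pool could not be compared between ages. The 3339 windows listed for the 11-month but not the 2-month WT pool had a median of 18 calls and 9 positions and a mean level of 42.8%. Of these 31.5% were over 80% and 44.8% under 20%. The 950 windows listed for the 2-month pool alone had a median of 15 calls and 7 positions and a mean level of 40.8%, with 28.4% over 80% and 47.4% under 20%.

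At the start of chromosome 9, 24 windows with 100 or more calls per position in both pools were at 13.5% to 17.3% at 2 months and at 17.9% to 22.3% at 11 months. Their differences ran from 4.12 to 6.93 points. Windows over Rn18s-rs5, a ribosomal RNA repeat on chromosome 17, went the other way, with 25.8% of 54618 calls and 15.4% of 96066 calls in the first of them. Reads of such repeated loci cannot be placed with certainty.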
